A study of Rattus norvegicus with 16 samples.

Results

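The kidney cortex of old male rats was compared with that of old female rats by RNA sequencing, with 4 libraries of each sex. The 8 libraries were taken by their age and sex labels from a series of 16, whose other 8 come from young males and young females, 4 of each. The comparison covers the 31081 of 32623 annotated genes that are not placed on chromosome X or Y. All 4 groups are untreated rats (Rattus norvegicus) that share a genotype given only as "Homo", and ages are given only as old or young. The sources used here give neither strain nor age in months. The title of the series names the cGAS-STING pathway and diabetic kidney disease, but no label marks an animal as diabetic. The labels do not state that each library is a separate rat, so the p-values measure the spread between these libraries. Library identifiers begin with OP or DS without explanation. Old male replicates 1, 2 and 3 and old female replicates 1 and 2 carry OP. Old male replicate 4, old female replicates 3 and 4 and all young libraries carry DS.

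Most of the cortex is proximal tubule, the nephron segment that reabsorbs glucose, amino acids, phosphate and filtered protein and secretes organic ions, and its cells burn fatty acids to do so. In rats the tubule is sexually dimorphic: androgens and the sex-specific pattern of growth hormone set the levels of many transporters and cytochrome P450 enzymes. Ageing rat kidneys, those of males above all, are known for spontaneous tubule injury, scarring and infiltration by leukocytes. When DNA appears in the cytosol, the enzyme cGAS makes the messenger cGAMP, which activates STING, and STING switches on interferon-stimulated and inflammatory genes.

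The old libraries held between 10827485 and 35957516 counts in males and between 14269100 and 17048319 in females, with the fewest in old male replicate 4 and the most in old male replicate 2. Counts of Y-linked genes matched every sex label, at 2458 to 8220 in males and 57 to 74 in females. Levels are given as CPM, the counts of a gene over the TMM-scaled library total, which is not corrected for gene length. Defining genes of the cortex were present in all 8 libraries. Lrp2 (megalin, proximal tubule) ranged between 1405 and 1815 CPM in males and between 3616 and 5057 CPM in females. Umod (uromodulin, thick ascending limb) ranged between 1043 and 4739 CPM in males and between 4515 and 5219 CPM in females. The first principal component held 78.4% of the variance and set all males apart from all females. Old male replicate 4 stood apart from the other males on the second (8.35% of the variance), and it was at least 2-fold below the mean of the other 3 males at 301 genes and above it at 70. No other old library lay at least 2-fold below the rest of its group at more than 68 genes. Old male replicate 1 was at least 2-fold above the mean of the other males at 140 genes and below it at 24. Values without old male replicate 4 are given below for several of the genes that it moved.

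Of 13718 genes with enough counts to test, 6539 (47.7%) differed between the sexes in edgeR's quasi-likelihood test at an adjusted p under 0.05. Old males were higher at 3326 of these (24.2% of those tested) and below old females at 3213 (23.4%). Counts of list members called, given below, are to be read beside these shares. Large differences leaned to the male side: 1406 genes (10.2%) were at least 2-fold higher and 692 (5.04%) at least 2-fold lower in old males, and at 16-fold or more the counts were 90 and 36. Small differences leaned to the female side, with 1192 calls under 1.5-fold among the higher genes and 1817 among the lower ones. All 4 male libraries lay above all 4 female libraries at 3218 genes (23.5%) and below them at 2963 (21.6%). The split of calls depends on the scale. Scaled by library totals without TMM factors, the median log2 fold change of all tested genes was 0.216, against 0.00159 with them, and 5760 genes were called higher and 1623 lower. Changes smaller than that shift are therefore relative to the typical gene. Without old male replicate 4, 6446 genes were called, which include 92.2% of the 6539. Within the OP libraries (3 males and 2 females) 5472 genes were called, among them 75.7% of the 6539. Within the DS libraries (1 male and 2 females, with the spread pooled with the young DS libraries) 4189 were called, among them 56% of the 6539.

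**Figure D1:**
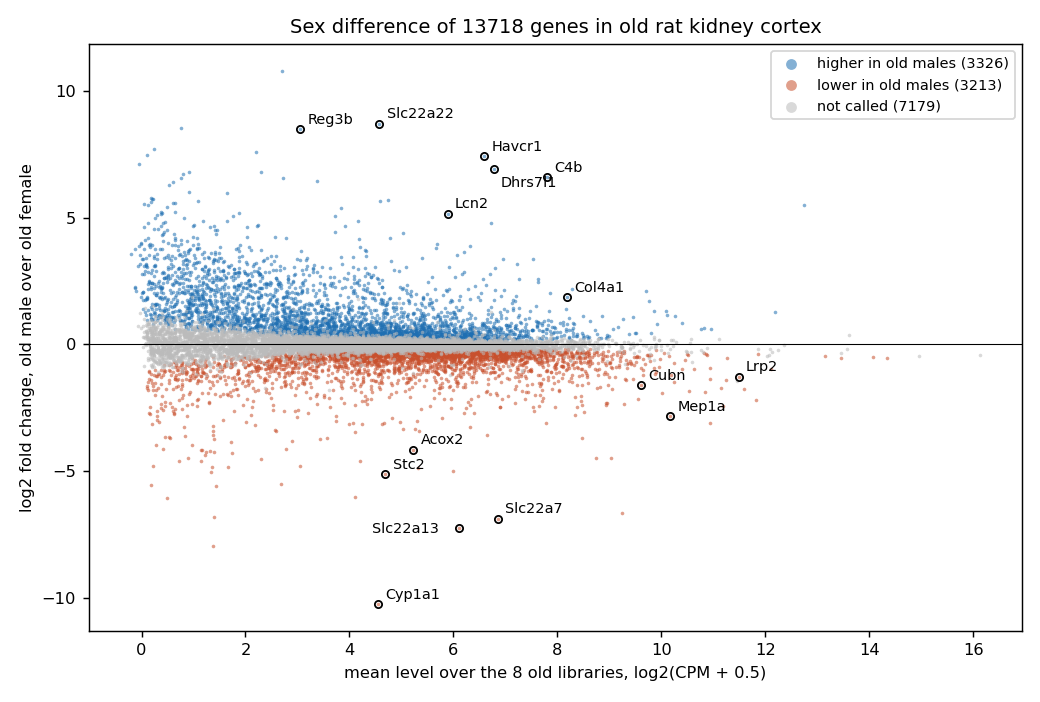
Each point is 1 of the 13718 tested genes, with its mean level over the 8 old libraries across (log2 of CPM + 0.5) and its log2 fold change, old male over old female, up. Blue points are the 3326 genes called higher in old males and orange points the 3213 called lower; Havcr1, Lcn2 and C4b sit far above 0 and Slc22a13, Slc22a7 and Cyp1a1 far below it.

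Genes of tubule injury were among those with the largest male excess. Of 30 tested members of the injury list, 26 were higher and 2 lower in old males, with a median log2 fold change of 1.32. Havcr1, which encodes kidney injury molecule 1, a protein that injured proximal tubule cells display, stood at 159, 181, 219 and 204 CPM in old males, against 3.50, 0.479, 0.221 and 0.393 CPM in old females (log2 fold change 7.42, SE 0.47, adjusted p = 3.05e-06). Every male library lay far above the highest female one, old female replicate 1, which itself stood above the other females (log2 fold change 8.99 without it). Lcn2, which encodes the iron-carrier-binding protein lipocalin 2 (NGAL), had 66.4, 137, 122 and 133 CPM in old males and 2.74, 3.28, 4.06 and 2.69 CPM in old females (log2 fold change 5.16, SE 0.26, adjusted p = 1.64e-06). Cd44, a hyaluronan receptor, averaged 123 ± 15.8 CPM in old males and 10.6 ± 2.90 CPM in old females (SD, n = 4 each; log2 fold change 3.53, SE 0.18, adjusted p = 1.64e-06). Gpnmb, a glycoprotein of phagocytic cells, showed a log2 fold change of 4.40, and the doublecortin-domain gene Dcdc2 one of 2.30, with no overlap between the sexes in either. Spp1 (osteopontin), chosen after its values were seen, reached 9143, 14592, 12889 and 17016 CPM in old males, against 215, 186, 437 and 331 CPM in old females (log2 fold change 5.52, SE 0.34, adjusted p = 2.83e-06). The 2 members that were lower in old males were Egf, a growth factor of the healthy distal nephron, with 122, 76.4, 104 and 30.3 CPM in males and 239, 314, 262 and 208 CPM in females (log2 fold change -1.61, and -1.34 without old male replicate 4), and Itgb6. Egf was lowest in old male replicate 4, and the males did not overlap the females.

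The secreted lectins Reg3g and Reg3b and the interleukin 10 family cytokines Il19 and Il24 were barely detected in old females. Reg3g had 5.10, 8.32, 10.5 and 24.1 CPM in old males and no count in any old female library, which makes it at least 192-fold higher in males (3 counts over the 4 female libraries as the floor). Reg3b had 4.79, 10.5, 13.6 and 33.5 CPM in old males and 0, 0, 0 and 0.131 CPM in old females, a ratio of 367 with a 95% counting interval of 101 to 3030. These 2 genes are closely related paralogs, and how reads were divided between them is not given, so their separate values are uncertain. Il19 had 4.95, 8.58, 9.47 and 9.45 CPM in old males and 0.152, 0, 0 and 0 CPM in old females, a ratio of 232 (64.1 to 1920). Il24 had a log2 fold change of 6.81 (SE 0.51; 8.21 without old female replicate 1). In all 4 genes every male library lay above every female one.

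Marker genes of leukocytes were higher in old males with few exceptions. All 20 tested macrophage and monocyte markers were called higher (median log2 fold change 1.76). So were 21 of 22 T and NK cell markers (median 2.50) and 11 of 12 B and plasma cell markers (median 4.13). Setting Cr2, which had no count in females, at its bound left that median unchanged. Summed over the list, T and NK cell markers ranged from 146 to 187 CPM in old males and from 27.3 to 38.5 CPM in old females. Macrophage markers ranged from 703 to 1168 CPM in old males and from 178 to 293 CPM in old females, and B and plasma cell markers from 302 to 467 CPM in old males and from 121.7 to 152.5 CPM in old females. In bulk tissue, fewer cells of a type and less RNA per cell cannot be told apart. Ptprc (CD45, the surface phosphatase of leukocytes) stood at 33.4, 40.4, 39.9 and 41.5 CPM in old males and 5.94, 4.86, 7.45 and 7.14 CPM in old females (log2 fold change 2.61, SE 0.13, adjusted p = 1.64e-06). Cd3e, a subunit of the T-cell receptor complex, had 4.43, 5.06, 5.51 and 5.86 CPM in males and 0.457, 0.684, 0.738 and 0.721 CPM in females (log2 fold change 2.98, SE 0.20, adjusted p = 3.6e-06). Lck and Cd5, also of T cells, had log2 fold changes of 2.60 and 3.25. Among the B-lineage genes, the heavy chain gene Ighm averaged 226 ± 70.5 CPM in males and 21.5 ± 7.48 CPM in females (SD, n = 4 each; log2 fold change 3.39, SE 0.30, adjusted p = 1.55e-05). Cd79b, part of the B-cell receptor, had 2.66, 2.57, 2.18 and 3.50 CPM in males and 0, 0, 0.0738 and 0 CPM in females, where 1 library held its only count. The ratio was 146 (26 to 5790). Cr2, the complement receptor of B cells and follicular dendritic cells, had 1.93, 2.54, 3.19 and 1.92 CPM in males and no count in females, at least 47.7-fold higher. In all 3 the lowest male library lay above every female one. Cd22, a B-cell surface lectin, and Irf4, a transcription factor of plasma cells, had log2 fold changes of 4.70 and 3.73. Irf4 was also higher in young males, with a log2 fold change of 2.29 in a fit of the young libraries alone. Of the macrophage markers, Laptm5, Itgax, Cd68 and Aif1 rose by 2.13, 2.41, 2.48 and 1.57 on the log2 scale, with no overlap between the sexes. The cytotoxic granule gene Gzmb had no count in any of the 8 libraries. Of 17 neutrophil and mast cell markers counted, 2 had enough counts to test, and the G-CSF receptor gene Csf3r was called higher (log2 fold change 2.83, SE 0.28, adjusted p = 2.74e-05). Their sum was 55.5 to 64.5 CPM in old males and 41.2 to 53.4 CPM in old females.

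**Figure D2:**
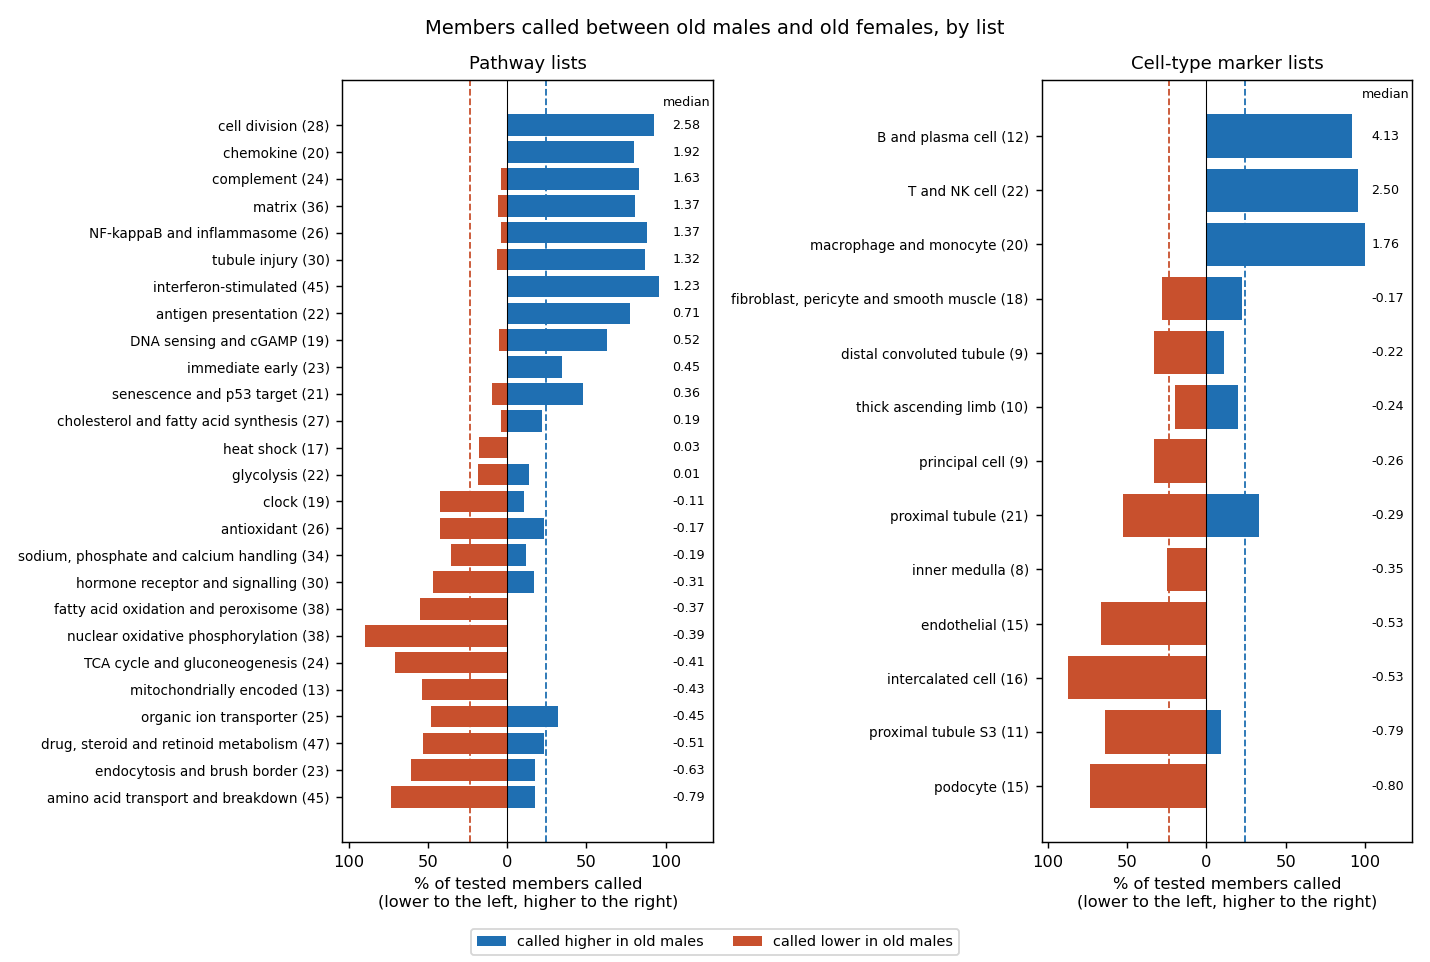
Bars give the share of tested members called higher (right, blue) and lower (left, orange) in old males for lists with at least 8 tested members, ordered by their median log2 fold change, printed at the right. Dashed lines mark the shares over all tested genes, 24.2% and 23.4%; leukocyte, cell division and inflammatory lists reach far past the right line and tubule transport, energy and podocyte lists past the left one.

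Innate immune signalling genes were higher in old males almost throughout. Of 45 tested interferon-stimulated genes 43 were higher and none was lower (median 1.23), and of 26 genes of the NF-kappaB and inflammasome list 23 were higher and 1 lower (median 1.37). The antigen presentation list had 17 of 22 members higher and none lower (median 0.71). Beside these lists, the summed leukocyte markers given above moved the same way, and their part in the result was not tested. The interferon list is shown here through the promoters of 5 members, because its genes moved together and because interferon-activated factors bind a known element. That element was searched as GAAANNGAAA on either strand in the 250 bases upstream of the annotated start, in the RefSeq promoter table (build GRCr8, which is not the build of the counts). It was present for 20 of the 35 tested members with a promoter in the table (57.1%), against 3.29% of 27457 promoters, and for 7 of 18 antigen presentation genes (38.9%). These lists name genes of known function, so their shares describe the lists and not these libraries. Among genes called at least 2-fold it was present for 5.73% of the higher and 3.49% of the lower, against 2.7% of tested genes. A match describes these letters in this window and nothing more. The last 120 bases before the start are given 5′ to 3′ on the strand of the gene, with the element in capitals. It starts 76 bases upstream in Parp14, 50 in Lgals3bp, 84 in Ifi27, 44 in Ifit3 and 92 in Isg20.
Parp14 (chr11:78408014-78408133, plus strand): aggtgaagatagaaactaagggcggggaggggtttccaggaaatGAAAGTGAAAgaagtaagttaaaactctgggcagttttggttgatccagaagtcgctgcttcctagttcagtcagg
Lgals3bp (chr10:104127849-104127968, minus strand): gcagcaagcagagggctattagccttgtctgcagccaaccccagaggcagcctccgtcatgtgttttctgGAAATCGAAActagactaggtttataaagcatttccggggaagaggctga
Ifi27 (chr6:128355192-128355311, plus strand): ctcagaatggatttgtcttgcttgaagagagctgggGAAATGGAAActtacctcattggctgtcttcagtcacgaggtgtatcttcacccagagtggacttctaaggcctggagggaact
Ifit3 (chr1:241527206-241527325, plus strand): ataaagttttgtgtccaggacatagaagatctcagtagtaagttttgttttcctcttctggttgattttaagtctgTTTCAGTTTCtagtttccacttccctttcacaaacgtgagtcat
Isg20 (chr1:142239939-142240058, plus strand): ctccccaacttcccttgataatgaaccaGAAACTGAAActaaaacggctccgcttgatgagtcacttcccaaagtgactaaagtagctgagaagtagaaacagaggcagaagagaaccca
In Ifit3 the element reads on the opposite strand. Parp14, an interferon-induced ADP-ribosyltransferase, had 52.1, 74.1, 85.4 and 73.5 CPM in old males and 18.7, 17.8, 17.6 and 16.8 CPM in old females (log2 fold change 2.01, SE 0.14, adjusted p = 4.31e-06). Lgals3bp, a secreted galectin ligand, had 141, 200.1, 189 and 232 CPM in old males and 45.02, 54.9, 51.6 and 50.7 CPM in old females (log2 fold change 1.91, SE 0.14, adjusted p = 5.77e-06). Female levels of both genes were tight, and the lowest male library of each lay more than 2-fold above the highest female one. The other 3, chosen for their element, had log2 fold changes of 0.79 (Ifi27), 0.73 (Ifit3) and 2.14 (Isg20). Irf8, a transcription factor of myeloid and B cells, and Rtp4 had log2 fold changes of 2.58 and 2.68.

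The DNA-sensing list itself had 12 of 19 tested members higher and 1 lower (median 0.52). Tmem173, the older symbol of Sting1, which encodes STING, stood at 9.22, 10.3, 9.76 and 8.92 CPM in old males and 2.44, 3.49, 4.43 and 3.73 CPM in old females (log2 fold change 1.44, SE 0.16, adjusted p = 5.91e-05). Every male library was at least 2-fold above every female one, and in the DS libraries alone (1 male and 2 females) the adjusted p was 0.0624. Cgas was scarce, with 0.937, 0.933, 0.870 and 0.700 CPM in old males and 0.457, 0.752, 0.664 and 0.721 CPM in old females. Its difference was not called (log2 fold change 0.42, SE 0.24, adjusted p = 0.181). On library totals it was called (log2 fold change 0.64, adjusted p = 0.0498), and under the other alternatives the adjusted p ran between 0.117 and 0.992. Its groups overlapped, since old male replicate 4 lay below 2 female libraries. Ikbke, a kinase that acts beside TBK1 below STING, averaged 9.56 ± 2.19 CPM in males and 2.93 ± 0.203 CPM in females (SD, n = 4 each; log2 fold change 1.69, SE 0.17, adjusted p = 3.46e-05). Tbk1 itself had a log2 fold change of -0.05 and was not called. Dnase2, which degrades DNA in lysosomes, and Samhd1, which hydrolyses deoxynucleotides, had log2 fold changes of 0.86 and 1.14. The single member that was lower was Enpp1, which degrades cGAMP, with a log2 fold change of -0.43. Tmem173 is also expressed by leukocytes, whose markers rose beside it, and their part in its difference was not tested.

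Among the NF-kappaB genes, the nuclear IkappaB protein gene Bcl3 had 19.8, 26.3, 27.9 and 26.9 CPM in old males and 3.20, 2.46, 2.21 and 3.21 CPM in old females (log2 fold change 3.18, SE 0.16, adjusted p = 1.64e-06). The feedback regulators Birc3, Tnfaip3 and Nfkbie had log2 fold changes of 3.06, 2.35 and 1.34. Il18, an inflammasome-processed cytokine, was the member called lower (-0.51). Of 20 tested chemokines and chemokine receptors 16 were higher and none was lower (median 1.92). Cxcl16 averaged 218 ± 32.1 CPM in males and 65.2 ± 5.38 CPM in females. Ccl21, a chemokine of lymphatic vessels and lymphoid tissue, averaged 56.4 ± 4.92 CPM in males and 13.99 ± 4.24 CPM in females (SD, n = 4 each). Its receptor gene Ccr7 was scarce, with 3 counts over the females and a ratio of 32 (10.7 to 157).

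Complement genes rose in old males in 20 of 24 cases, and 1 fell (median 1.63). C4b, which encodes complement component 4, had 272, 529.9, 403 and 545 CPM in old males, against 6.32, 2.32, 4.95 and 4.46 CPM in old females (log2 fold change 6.61, SE 0.32, adjusted p = 1.64e-06). The 4 males overlapped with none of the females, and reads may be shared with its close paralog C4a. C2, which joins C4 in the convertase, and C5 had log2 fold changes of 2.11 and 1.32. Cd55, a membrane protein that dissolves the convertase, was the member called lower, at 8.02, 5.99, 6.09 and 5.69 CPM in males and 27.5, 33.6, 32.99 and 28.04 CPM in females (log2 fold change -2.24, SE 0.13, adjusted p = 2.24e-06).

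Genes of the extracellular matrix and its remodelling rose, 29 of 36 tested, while 2 fell (median 1.37). Col4a1, a basement membrane collagen, had 363, 489, 497 and 482 CPM in old males and 109.6, 136, 138 and 123 CPM in old females (log2 fold change 1.85, SE 0.12, adjusted p = 3.16e-06). Its partner Col4a2 had a log2 fold change of 1.35. Mmp14, a membrane-bound collagenase, and Fbn1 (fibrillin 1) had log2 fold changes of 1.24 and 1.52. Genes of interstitial collagen, chosen after their values were seen, were also higher. Col1a1 averaged 52.04 ± 3.50 CPM in males and 11.5 ± 4.06 CPM in females, and Col3a1 127 ± 19.01 CPM in males and 27.7 ± 7.61 CPM in females (SD, n = 4 each). The gelatinase gene Mmp9 went the other way, with 12.96, 4.62, 6.46 and 2.71 CPM in males and 21.5, 21.6, 26.7 and 57.7 CPM in females (log2 fold change -2.24, SE 0.45, adjusted p = 0.00238). Markers of fibroblasts, pericytes and smooth muscle did not move together: 4 of 18 were higher (C7, Pdgfb, Des and Dpt) and 5 lower (8 lower without old female replicate 1), Itga8 among them with a log2 fold change of -0.998 and groups that overlapped. The counts of 4 and 5 were near the shares over all tested genes, 24.2% higher and 23.4% lower. Their sum was 561 to 630 CPM in males and 357 to 506 CPM in females, so the summed list was higher in every male library.

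**Figure D3:**
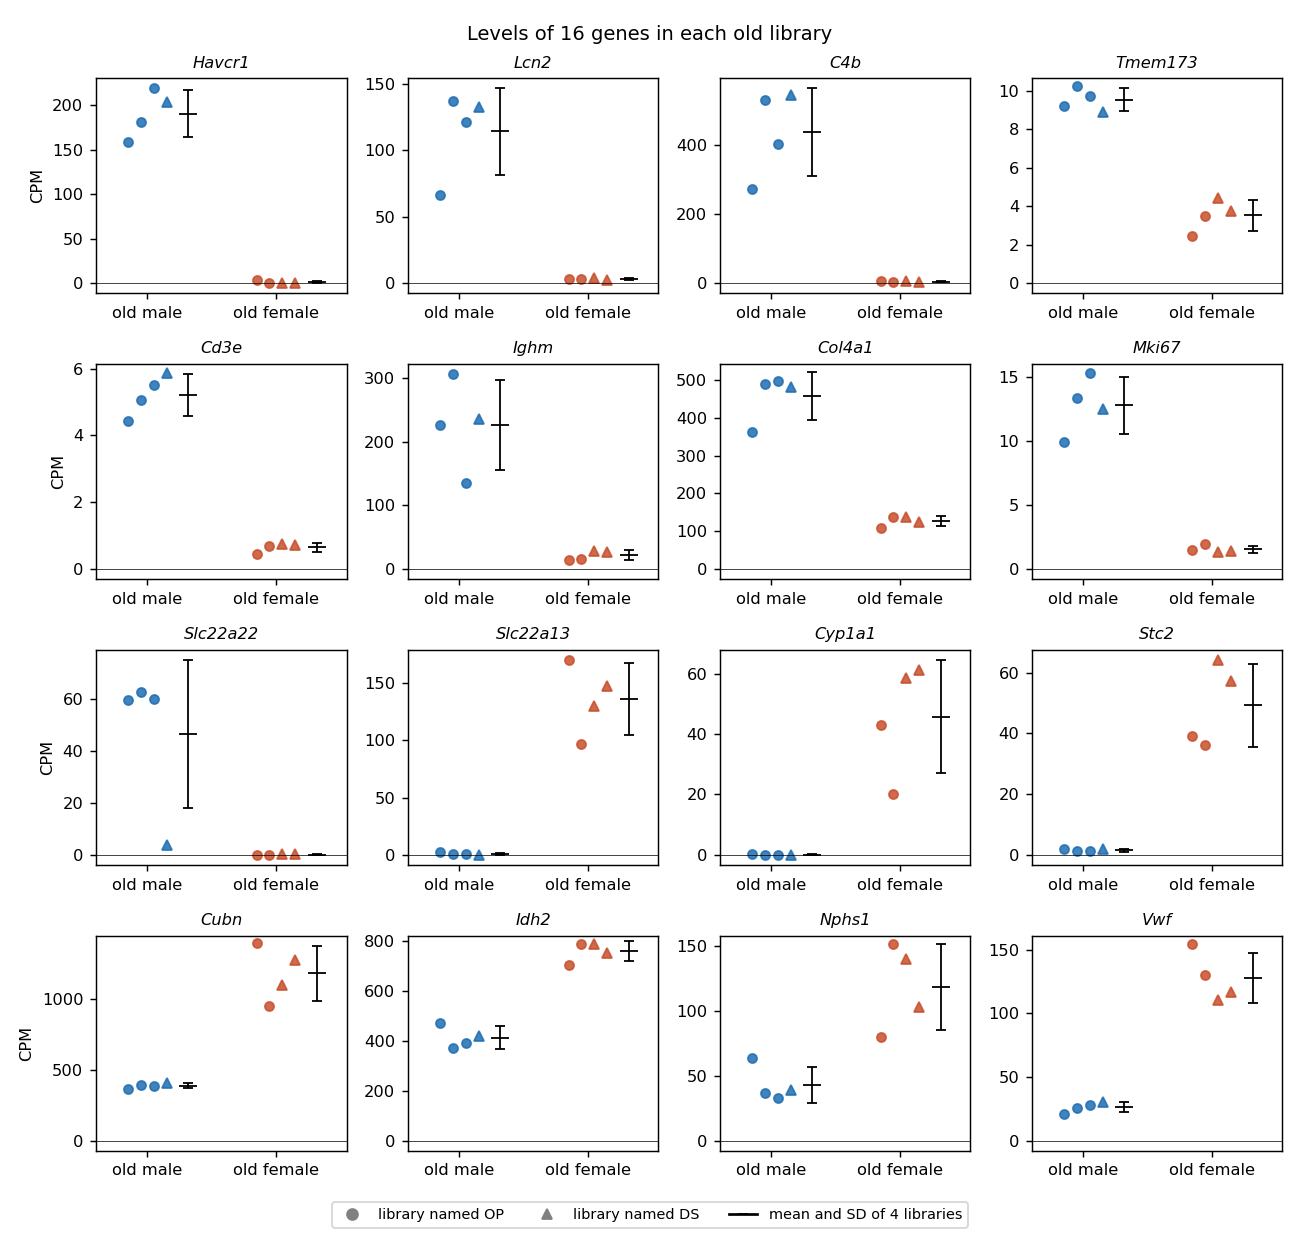
Points are the level of a gene in 1 old library in CPM, on linear axes that differ between panels, with old males on the left and old females on the right; circles are OP and triangles DS libraries, and bars the mean and SD of 4 libraries. In the first 9 panels all males lie above all females, and old male replicate 4 drops to 3.76 CPM in the panel of Slc22a22; in the last 7 panels all females lie above all males.

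Cell division genes had a median log2 fold change of 2.58, with 26 of 28 members higher in old males and none lower. Mki67, the proliferation antigen, had 9.94, 13.4, 15.3 and 12.5 CPM in males and 1.45, 1.91, 1.33 and 1.44 CPM in females (log2 fold change 3.06, SE 0.18, adjusted p = 2.36e-06). Top2a, the topoisomerase of dividing cells, had 9.68, 14.8, 13.1 and 10.6 CPM in males and 0.457, 0.957, 0.886 and 0.328 CPM in females (log2 fold change 4.20, SE 0.27, adjusted p = 3.33e-06). Cenpf and Kif11 had log2 fold changes of 4.24 and 1.90. Kif11 was also higher in young males, with a log2 fold change of 2.10 in a fit of the young libraries alone. In none of these 4 genes did a male library come down to the female range. The CCAAT box, a promoter element known from cell cycle genes, was present on either strand in the same 250 bases for 16 of the 22 members with a promoter in the table (72.7%), against 34.3% of all promoters. Among genes called at least 2-fold it was present for 32.7% of the higher and 38.1% of the lower, against 35.1% of tested genes. The last 120 bases are given for 3 members, with the box in capitals. It starts 94 bases upstream of the start in Mki67 (opposite strand), 82 and 50 in Ccnb1, and 86 and 41 in Cdc20.
Mki67 (chr1:199952594-199952713, minus strand): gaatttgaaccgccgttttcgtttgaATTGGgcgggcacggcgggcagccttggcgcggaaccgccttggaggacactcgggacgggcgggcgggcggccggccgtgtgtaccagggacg
Ccnb1 (chr2:33655226-33655345, minus strand): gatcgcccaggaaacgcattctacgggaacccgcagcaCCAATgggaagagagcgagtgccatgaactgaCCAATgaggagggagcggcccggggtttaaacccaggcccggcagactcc
Cdc20 (chr5:137255800-137255919, minus strand): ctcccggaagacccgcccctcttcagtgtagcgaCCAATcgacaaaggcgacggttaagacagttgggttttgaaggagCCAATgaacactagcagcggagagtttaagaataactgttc
Ccnb1 (cyclin B1) and Cdc20, shown for their boxes, had log2 fold changes of 2.56 and 1.48. Of 21 genes of senescence and p53 targets, 10 were higher and 2 lower (median 0.36). The cyclin-dependent kinase inhibitor genes Cdkn1a (p21) and Cdkn2b (p15) had log2 fold changes of 1.12 and 4.65 (6.13 for Cdkn2b without old female replicate 3), with p21 at 33.5, 31.5, 35.2 and 34.02 CPM in males and 11.5, 15.4, 16.5 and 18.1 CPM in females. Lmnb1, a lamin whose loss marks senescent cells, was higher (1.32) and Glb1, the lysosomal beta-galactosidase, lower (-0.68) in old males.

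Proximal tubule genes were split. Of 21 tested markers 11 were lower and 7 higher in old males (median -0.29), and the list summed to between 14370 and 16340 CPM in males and between 21290 and 24200 CPM in females. The endocytic receptor genes fell. Cubn (cubilin) had 361, 390.2, 388 and 406 CPM in males and 1392, 953, 1096 and 1275 CPM in females (log2 fold change -1.61, SE 0.12, adjusted p = 7.14e-06). Lrp2 had a log2 fold change of -1.27. Of 23 genes of endocytosis and the brush border 14 were lower and 4 higher (median -0.63). The brush border peptidase subunit gene Mep1a averaged 282 ± 94.9 CPM in males and 2011 ± 384 CPM in females (log2 fold change -2.83, SE 0.25, adjusted p = 1.57e-05). Alkaline phosphatase (Alpl) averaged 174 ± 16.4 CPM in males and 437 ± 78.6 CPM in females (SD, n = 4 each). The glucose exit transporter gene Slc2a2 went the other way, with 159.7, 204, 216 and 242 CPM in males and 51.4, 43.4, 41.9 and 47.2 CPM in females (log2 fold change 2.16, SE 0.13, adjusted p = 2.24e-06).

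The 7 markers that rose were Slc5a2, Slc5a12, Slc4a4, Slc13a1, Slc6a19, Slc26a1 and Gatm, most of them carriers. Slc5a2 and Slc5a12 belong to the early convoluted segment and are given in full with Slc7a7, a choice made after their values were seen. Slc5a2 (SGLT2), which takes up glucose there, had 106, 127, 113 and 303 CPM in old males and 28.8, 27.4, 30.9 and 21.4 CPM in old females (log2 fold change 2.57, SE 0.33, adjusted p = 0.000155; 2.10 without old male replicate 4). The lactate carrier Slc5a12 had 55.6, 74.1, 77.5 and 222 CPM in males and 14.2, 12.7, 10.6 and 13.8 CPM in females (log2 fold change 3.05, SE 0.42, adjusted p = 0.00023; 2.44 without old male replicate 4). The basolateral cationic amino acid carrier subunit Slc7a7 had 209, 299.7, 262 and 584 CPM in males and 44.8, 65.2, 56.7 and 60.9 CPM in females (log2 fold change 2.57, SE 0.29, adjusted p = 7.38e-05; 2.18 without old male replicate 4). In all 3 old male replicate 4 was well above the other males, and each of the other males still lay above every female. Markers of the straight S3 segment had 7 of 11 members lower and 1 higher (median -0.79), and summed to between 2052 and 3115 CPM in males and between 5573 and 7994 CPM in females. The S3 cystine and aspartate carrier Slc7a13, also chosen after its values were seen, had 839.9, 408, 358 and 6.73 CPM in males and 4594, 2825, 2975 and 3593 CPM in females (log2 fold change -3.12, SE 0.91, adjusted p = 0.0166; -2.70 without old male replicate 4). Slc5a1 (SGLT1) had 46.2, 40.8, 36.8 and 14.3 CPM in males and 121, 83.8, 123 and 125 CPM in females (log2 fold change -1.69, SE 0.28, adjusted p = 0.000774). For these S3 genes old male replicate 4 was the lowest library. The member that was higher was Bcat1, a branched-chain aminotransferase, with a log2 fold change of 2.17.

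Organic ion transporters held some of the largest differences in both directions, 8 of 25 higher and 12 lower (median -0.45). Slc22a13 (OAT10), an exchanger of nicotinate and urate, had 2.08, 0.622, 0.725 and 0.175 CPM in old males, against 170.3, 96.4, 129.8 and 148 CPM in old females (log2 fold change -7.23, SE 0.37, adjusted p = 1.64e-06; -7.83 without old male replicate 1). Slc22a7 (OAT2) had 3.23, 2.02, 1.85 and 0.0875 CPM in males and 293, 198, 203 and 225 CPM in females (log2 fold change -6.88, SE 0.37, adjusted p = 1.99e-06). In both the males lay far below every female. Slc22a25 and the prostaglandin transporter Slco2a1 had log2 fold changes of -2.14 and -1.41. On the other side, Slc22a22, a member of the same organic anion transporter family, had 59.8, 62.7, 60.2 and 3.76 CPM in old males and 0.0762, 0, 0.148 and 0.197 CPM in old females (log2 fold change 8.71, SE 1.13, adjusted p = 0.000155). Its 3 OP male libraries lay close together, and the DS library, old male replicate 4, was far below them but above every female. With limma-voom its adjusted p was 0.0613.

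Enzymes of drug, steroid and retinoid metabolism were lower more often than higher, 25 against 11 of 47 tested (median -0.51). Cyp1a1, the P450 enzyme induced through the aryl hydrocarbon receptor, was all but absent from old males, at 0.156, 0, 0 and 0 CPM, and present in every old female library, at 43.1, 20.2, 58.5 and 61.4 CPM. The female level was 1480 times the male one (505 to 7170). Cyp4b1 had 13.3, 13.9, 18.1 and 16.3 CPM in males and 236, 157, 187 and 150.3 CPM in females (log2 fold change -3.57, SE 0.16, adjusted p = 1.64e-06). Cyp4f1 and the hydroxysteroid dehydrogenase Hsd17b11 had log2 fold changes of -1.56 and -1.01. Cyp4a2, an arachidonic acid hydroxylase higher in male rat kidney, chosen after its values were seen, averaged 6581 ± 792 CPM in males and 2699 ± 520.0 CPM in females (SD, n = 4 each; log2 fold change 1.29, SE 0.16, adjusted p = 0.000136). Its reads may be shared with other Cyp4a genes. Dhrs7l1, a short-chain dehydrogenase gene, had 293, 280.4, 277 and 12.2 CPM in males and 1.68, 1.23, 2.29 and 1.90 CPM in females (log2 fold change 6.93, SE 0.93, adjusted p = 0.000192). Again old male replicate 4 was far below the other males, and with limma-voom the adjusted p was 0.0621.

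Amino acid transport and breakdown was the metabolic list with the lowest median, -0.79, with 33 of 45 members lower and 8 higher (5 higher without old female replicate 1 or 4). The kynureninase gene Kynu had 36.7, 34.8, 32.2 and 34.99 CPM in old males and 112, 88.9, 91.01 and 97.1 CPM in old females (log2 fold change -1.49, SE 0.08, adjusted p = 1.99e-06). The tyrosine-breakdown enzymes Hpd and Fah averaged 784 ± 156 and 139 ± 20.6 CPM in males, and 2863 ± 305 and 563 ± 84.01 CPM in females (SD, n = 4 each). Cbs, which condenses homocysteine with serine, had a log2 fold change of -1.04. Sds, a serine dehydratase, had 0.521, 0.596, 0.580 and 0 CPM in males and 58.4, 24.2, 22.4 and 26.99 CPM in females (log2 fold change -6.03, SE 0.46, adjusted p = 7.58e-06). The males of these 5 genes all lay below the females.

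Genes of mitochondrial energy production were lower in old males by small amounts. None of the 38 tested nuclear genes of oxidative phosphorylation was higher and 34 were lower (median -0.39). The complex I subunit genes Ndufs7, Ndufa2, Ndufb8 and Ndufb10 had log2 fold changes of -0.64, -0.59, -0.59 and -0.58, each with no overlap between the sexes. Fatty acid oxidation had 21 of 38 members lower and none higher (median -0.37), and the TCA cycle and gluconeogenesis 17 of 24 lower and none higher (median -0.41). Acox2, a peroxisomal oxidase of branched-chain fatty acids and bile acid intermediates, had 6.14, 4.15, 3.92 and 0.612 CPM in old males and 77.5, 55.5, 71.8 and 76.7 CPM in old females (log2 fold change -4.16, SE 0.34, adjusted p = 1.04e-05). The lowest of all was old male replicate 4. Ehhadh, Etfb and Acad11 had log2 fold changes of -1.11, -0.80 and -0.72. Idh2, the mitochondrial isocitrate dehydrogenase, had 472, 371, 389 and 417 CPM in males and 702, 788, 787 and 752 CPM in females (log2 fold change -0.88, SE 0.09, adjusted p = 4.25e-05). Dlst, Sucla2 and Fh had log2 fold changes of -0.67, -0.55 and -0.60. Of the 13 genes on the mitochondrial chromosome 7 were lower and none higher (median -0.43). That count was 1 without old male replicate 2, 3 without old male replicate 3 or old female replicate 2, 4 without old female replicate 4 and 11 without old male replicate 1. It was 3 in the OP libraries alone, 5 in the DS libraries alone and 3 when a score of inner medulla markers (described below) entered the model. Mt-nd4, Mt-nd2, Mt-atp8 and Mt-nd4l had log2 fold changes of -0.47, -0.53, -0.46 and -0.43, and the last 3 lost the call without old male replicate 2. These medians are near the shift between scales: on library totals they became -0.179, -0.154, -0.198 and -0.22, with 13, 16, 11 and 0 members called lower and 1, 5, 2 and 0 called higher.

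Glycolysis genes had 3 of 22 members higher and 4 lower (median 0.01). Without old male replicate 4 it was 6 higher and 3 lower (median -0.0238). Without old male replicate 3 or old female replicate 3, 1 member was lower, and without old male replicate 2 there were 2. On library totals 10 were higher and none lower. The hexokinase genes Hk3, a leukocyte form, and Hk2 had log2 fold changes of 2.69 and 1.07, and Ldhb and Slc2a1 (GLUT1) ones of -0.46 and -0.61. Both of these lost the call without old male replicate 3. Antioxidant genes had 6 of 26 higher and 11 lower, a median of -0.17 that turned to 0.0421 on library totals. The glycolysis and antioxidant counts stand beside 24.2% higher and 23.4% lower over all tested genes. The 6 higher antioxidant genes were close to that share, and the glycolysis counts did not exceed it. Gpx2, a glutathione peroxidase, had 108, 135, 113 and 161 CPM in males and 17.1, 20.7, 16.7 and 16.6 CPM in females (log2 fold change 2.86, SE 0.14, adjusted p = 1.64e-06). Hmox1 (heme oxygenase 1) and Ncf1, a subunit of the phagocyte NADPH oxidase, were higher, with log2 fold changes of 3.04 and 2.29. The extracellular superoxide dismutase gene Sod3 had 307, 377, 350.0 and 381 CPM in males and 997, 888, 868 and 963 CPM in females (log2 fold change -1.39, SE 0.09, adjusted p = 4.28e-06).

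Genes of mineral handling and of hormone signalling differed one by one. Of 34 genes for sodium, phosphate and calcium 12 were lower and 4 higher, with a median of -0.19 that turned to 0.0186 on library totals. Among all tested genes 24.2% were higher and 23.4% lower. The counts called higher here and in the hormone list below did not exceed that share. Stc2 (stanniocalcin 2, a secreted glycoprotein) had 1.82, 1.11, 1.16 and 1.92 CPM in old males and 39.00, 36.3, 64.3 and 57.2 CPM in old females (log2 fold change -5.12, SE 0.26, adjusted p = 1.64e-06). The phosphate carrier genes Slc34a2 and Slc34a3 were higher. Slc34a2 had 258, 347, 285 and 178 CPM in males and 34.7, 26.5, 30.6 and 26.8 CPM in females (log2 fold change 3.18, SE 0.19, adjusted p = 2.59e-06). Slc34a3 had 58.8, 67.3, 52.8 and 146 CPM in males and 15.7, 16.96, 19.3 and 17.8 CPM in females (log2 fold change 2.21, SE 0.30, adjusted p = 0.00023; 1.78 without old male replicate 4). Old male replicate 4 was the lowest male for Slc34a2 and the highest for Slc34a3. Slc34a1, the main proximal phosphate carrier, was not called, at 1801 ± 133 CPM in males and 1966 ± 121 CPM in females (SD, n = 4 each; log2 fold change -0.13). The angiotensin receptor gene Agtr1a had a log2 fold change of -0.98. The vitamin D enzymes, chosen after their values were seen, went opposite ways. Cyp27b1, which makes active vitamin D, had 2.34, 4.87, 2.10 and 11.3 CPM in males and 0, 0, 0.295 and 0 CPM in females (log2 fold change 5.99, SE 0.99, adjusted p = 0.000694; 5.37 without old male replicate 4). It had 4 counts in all over the females. Cyp24a1, which degrades active vitamin D, had 140.3, 136, 111 and 105 CPM in males and 283, 185, 302 and 357 CPM in females (log2 fold change -1.19, SE 0.18, adjusted p = 0.000425). The vitamin D receptor gene Vdr and the FGF23 co-receptor gene Kl (klotho) had log2 fold changes of -0.56 and -0.73. Of 30 hormone receptor and signalling genes 14 were lower and 5 higher (median -0.31). The cytokine feedback gene Socs3 had 10.8, 14.6, 14.1 and 17.4 CPM in males and 0.838, 1.85, 4.35 and 1.31 CPM in females (log2 fold change 2.77, SE 0.36, adjusted p = 0.000168; 3.39 without old female replicate 3). The sexes were fully apart. Esr1, which encodes estrogen receptor alpha, was not called, with 37.96, 31.6, 27.8 and 14.8 CPM in males and 27.9, 22.7, 22.6 and 31.3 CPM in females (log2 fold change 0.12).

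Markers of the glomerulus and of vessels were lower. Of 15 podocyte genes 11 were lower and none higher (median -0.80), with the list summing to between 422 and 593 CPM in males and between 577 and 1047 CPM in females. Nphs1 (nephrin, the slit diaphragm protein) had 63.5, 37.03, 32.97 and 38.9 CPM in old males and 80.1, 152, 140.3 and 103 CPM in old females (log2 fold change -1.47, SE 0.24, adjusted p = 0.000701). Podxl, Clic3 and Plce1 had log2 fold changes of -1.27, -1.54 and -0.72. Of 15 endothelial genes 10 were lower and none higher (median -0.53), and 6 were lower in the OP libraries alone. In young cortex 11 of the 15 were lower in males (median -0.52), against 15.7% of all tested genes. The old difference was called below the young one for 3 and above it for 1. Over all tested genes each of these shares was 19.4%, so the count of 3 was near it. Vwf (von Willebrand factor) had 20.8, 25.8, 28.2 and 30.4 CPM in males and 154, 130.1, 110.3 and 117 CPM in females (log2 fold change -2.28, SE 0.14, adjusted p = 2.37e-06). Emcn, Ehd3 and Tek had log2 fold changes of -1.05, -1.12 and -0.52.

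Distal nephron markers were lower or not called in old males, with 3 exceptions. Over all tested genes 24.2% were higher and 23.4% lower. Apart from intercalated cells, the counts called lower in these short lists and in the inner medulla list were close to that share. Of 16 intercalated cell markers 14 were lower and none higher (median -0.53; 6 lower and 1 higher on library totals). Called lower were 9 without old male replicate 2, 8 when the inner medulla score entered the model, 4 in the OP libraries alone and 14 in the DS libraries alone. Car2 (carbonic anhydrase 2) had 535, 515, 510.0 and 431 CPM in males and 821, 728, 746 and 794 CPM in females (log2 fold change -0.63, SE 0.09, adjusted p = 0.000268). Slc4a9, Atp6v1c2 and Spink8 had log2 fold changes of -0.64, -0.85 and -2.69. Of 10 thick ascending limb genes 2 were higher (Ptger3, 0.71, and Cldn19, 0.90) and 2 lower (Egf and Cldn10, -0.63), with a median of -0.24 that was -0.0253 without old male replicate 4. Umod had 4739, 4159, 4016 and 1043 CPM in males and 4515, 4640.4, 5219 and 4982 CPM in females and was not called (log2 fold change -0.47, and -0.16 without old male replicate 4). The summed thick ascending limb markers lay between 1966 and 6864 CPM in males, with the lowest in old male replicate 4, and between 6664 and 7752 CPM in females. Of 9 distal convoluted tubule genes 3 were lower, Trpm6 (-0.62), Kl and Emx1 (-0.58), and 1 higher, Sgms2 (0.76), while Slc12a3 was not called. Of 9 principal cell genes 3 were lower, Fxyd4 (-1.17), Aqp4 (-1.002) and Aqp3 (-0.52), and Aqp3 and Aqp4 lost the call without old male replicate 4 (adjusted p 0.0877 and 0.0747) and without any of several other libraries, as did Emx1 without old male replicate 2 or 3. Markers of the inner medulla, which a cortex sample should hold little of, had 2 of 8 members lower (the same Fxyd4 and Aqp4). They summed to between 306 and 507 CPM in males and between 398 and 853 CPM in females, where the 2 DS libraries had the higher mean log2 levels (5.33 and 5.33, against 4.52 and 4.83 in the OP libraries). With that mean log2 level as a covariate, 5689 genes were called, among them 82.7% of the 6539.

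Genes that mark sex in the young kidney were then followed into the old libraries. In a fit of the 8 young libraries alone, 145 genes were at least 4-fold higher in males at an adjusted p under 0.05, of which 112 could be tested in the old ones. This choice uses no old library and was made after the old values were seen. In old cortex 83 of the 112 were again higher in males (24.2% of all tested genes were), 2 lower and 27 not called, and the median log2 fold change was 1.83 in old libraries and 3.11 in young ones, smaller in old for 94 of the 112. Of 127 tested genes that were at least 4-fold lower in young males, 99 were lower in old males (23.4% of all tested genes were), 6 higher and 22 not called, with medians of -2.35 in old and -2.69 in young libraries. Old male replicate 4 differed in its median from the other old males mainly in the first set. Its median difference from the mean of the old females was 0.738 on the log2 scale, against 1.74, 1.75 and 1.53 in old male replicates 1, 2 and 3, and it was the lowest male at 80 of the 112 genes. In the second set its median was -1.80, beside -1.80, -1.69 and -1.87, and it was the lowest male at 59 of the 127 genes. The young medians are those the choice was made on. The only old male with the DS prefix is old male replicate 4, so that the library and its identifier prefix cannot be told apart.

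**Figure D4:**
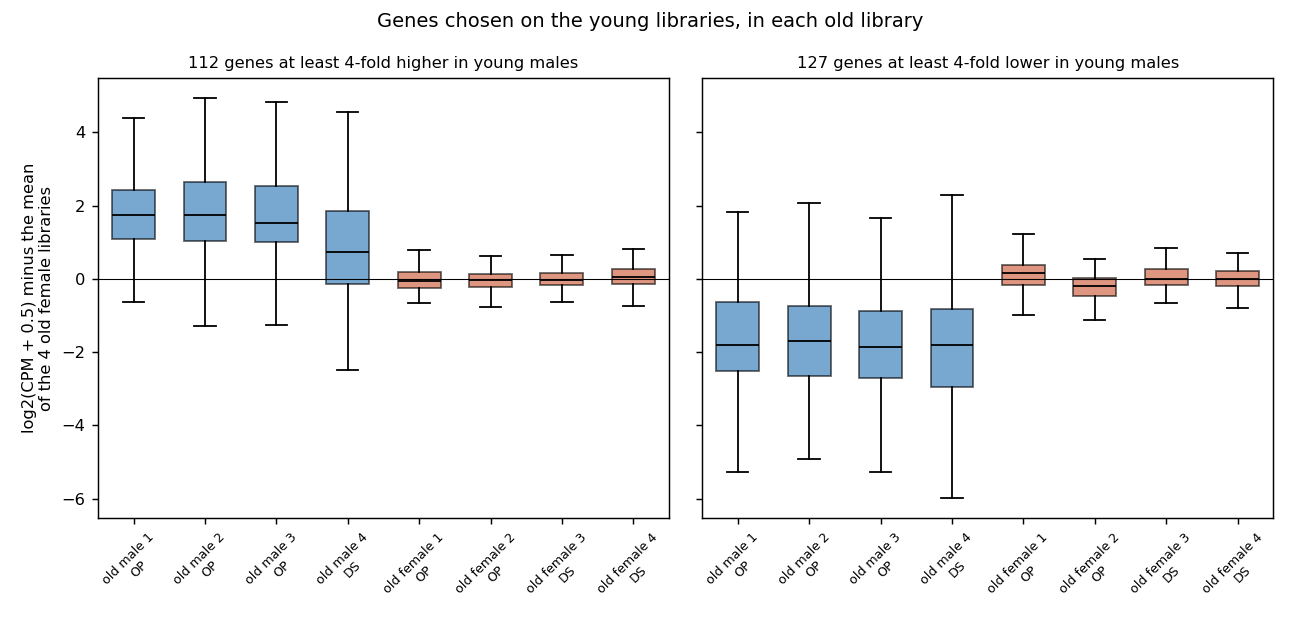
Boxes show, for each old library, the middle of the distribution (median and quartiles, whiskers to 1.5 times the quartile range) of log2(CPM + 0.5) minus the mean of the 4 old female libraries, over genes chosen on the young libraries. In the left panel the median of old male replicate 4 is 0.738, below the 1.53 to 1.75 of the other males; in the right panel the 4 males lie together at -1.87 to -1.69.

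Values of single genes far apart between the sexes follow. The bile acid exporter subunit Slc51b, chosen after its values were seen, had 24.8, 35.2, 30.7 and 8.31 CPM in old males and 0.457, 1.30, 0.664 and 0.524 CPM in old females (log2 fold change 5.07, SE 0.51, adjusted p = 3.22e-05). The kinase gene Melk, one of the largest male excesses, had 18.95, 15.4, 11.7 and 2.19 CPM in males and 0, 0.205, 0.221 and 0.0655 CPM in females (log2 fold change 6.57, SE 0.83, adjusted p = 0.000138). The syntrophin gene Sntg2 had 2.08, 3.50, 2.79 and 1.40 CPM in males and 0, 0.0684, 0 and 0 CPM in females, a ratio of 157 (27.9 to 6210). In both, old male replicate 4 was the lowest male, and the males stayed above the females. Among the genes lowest in males, Emilin3, a matrix glycoprotein gene, had 0.0521, 0, 0 and 0 CPM in males and 6.17, 4.31, 2.80 and 3.34 CPM in females, with the female level 399 times the male one (70.9 to 15800). Cmtm2a had 0.104, 0.0259, 0 and 0 CPM in males and 6.17, 4.03, 3.17 and 3.54 CPM in females, 135 times higher in females (45.7 to 660). Col17a1, a collagen of hemidesmosomes, had 7.76, 3.58, 2.61 and 1.05 CPM in males and 129, 86.4, 124 and 151 CPM in females (log2 fold change -4.99, SE 0.39, adjusted p = 8.02e-06). No male library of these 3 genes reached the lowest female one. In young cortex they were lower in males as well (log2 fold changes -5.61, -6.88 and -4.49). Slc51b, Melk and Sntg2 were higher in young males (5.66, 7.02 and 7.11). Ly6al, Syt15, Nell1 and the irritant-gated channel gene Trpa1 had log2 fold changes of -4.87, -5.51, -5.57 (-6.20 without old male replicate 1) and -5.02, and all 4 were lower in young males too (-4.68, -4.42, -4.63 and -3.42).

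Whether the sex difference of old cortex exceeds that of young cortex was tested in a fit of all 16 libraries. Of 13925 genes tested there, 6862 were called between old males and old females and 4406 between young males and young females (15.9% higher and 15.7% lower in young males). The young split also depends on the scale: on library totals 1079 genes were higher and 4347 lower in young males. The difference between the 2 sex differences was called for 5392 genes (38.7%), with the old difference above the young one at 2695 (19.4%) and below it at 2697 (19.4%). Both comparisons called 2535 genes, of which 1745 had the same direction, 25.4% of the old calls and 39.6% of the young ones, and 790 the opposite one. A further 2827 genes were called in old and not in young cortex and also in the test of the difference, 1564 of them higher and 1263 lower in old males. All young libraries carry DS while the old carry both prefixes, so age and prefix cannot be wholly told apart.

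Inflammation, injury and matrix lists had a larger sex difference in old than in young cortex. In the age-by-sex test the old difference was above the young one for 42 of 45 interferon-stimulated genes, 21 of 26 NF-kappaB genes, 19 of 24 complement genes, 25 of 30 injury genes, 28 of 36 matrix genes and 24 of 28 cell division genes. The same held for 18 of 20 macrophage, 19 of 22 T and NK cell and 9 of 12 B and plasma cell markers. In young cortex the medians of the injury and matrix lists were -0.40 and -0.57, with 11 of 30 and 15 of 36 members called lower in young males. Lcn2 averaged 4.06 ± 0.147 CPM in young males and 4.07 ± 0.416 CPM in young females (SD, n = 4 each), a sex difference that in old cortex was 5.17 log2 units larger (SE 0.32, adjusted p = 5.09e-08). Havcr1 averaged 3.85 ± 1.35 CPM in young males and 1.34 ± 0.544 CPM in young females, and its difference grew by 5.89 (SE 0.78, adjusted p = 2.81e-05). Tmem173 averaged 2.58 ± 0.646 CPM in young males and 4.78 ± 1.78 CPM in young females, and was called lower in young males (log2 fold change -0.89), with an age-by-sex difference of 2.34 (SE 0.34, adjusted p = 6.01e-05). For Cgas that difference was 1.39 and was not called (SE 0.54, adjusted p = 0.0543).

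Energy lists showed the reverse. The old difference was below the young one for 37 of 38 oxidative phosphorylation genes, 31 of 38 fatty acid oxidation genes, 19 of 24 TCA cycle genes and all 13 mitochondrially encoded genes. In young cortex their medians were 0.13, 0.28, 0.20 and 0.42. On library totals the age-by-sex calls were 6515 above and 864 below. The young comparison then had 1079 genes higher and 4347 lower in young males, against 2217 and 2189 with TMM factors. The young medians of these lists were not computed on library totals. Among proximal tubule markers the old difference was below the young one for 13 of 21 and above it for 2. Miox, the inositol oxygenase of the proximal tubule, averaged 1031 ± 239.9 CPM in old males and 1989 ± 198 CPM in old females, but 3498 ± 213 CPM in young males and 1566 ± 228 CPM in young females (SD, n = 4 each). It was lower in old males and higher in young ones. Cyp24a1 averaged 118 ± 16.9 CPM in old males and 267 ± 66.7 CPM in old females, and 132 ± 10.6 CPM in young males and 16.6 ± 13.1 CPM in young females. The matrix protein gene Tnc did the opposite, with 32.5 ± 4.51 CPM in old males and 7.85 ± 3.64 CPM in old females, and 5.33 ± 0.747 CPM in young males and 22.6 ± 9.56 CPM in young females. These 3 were chosen after their values were seen, and all had an adjusted p under 0.05 in both comparisons. Inner medulla markers were unequal in the young groups, with 6 of 8 called lower in young males (median -1.26), and their part in the age comparison was not tested.

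**Figure D5:**
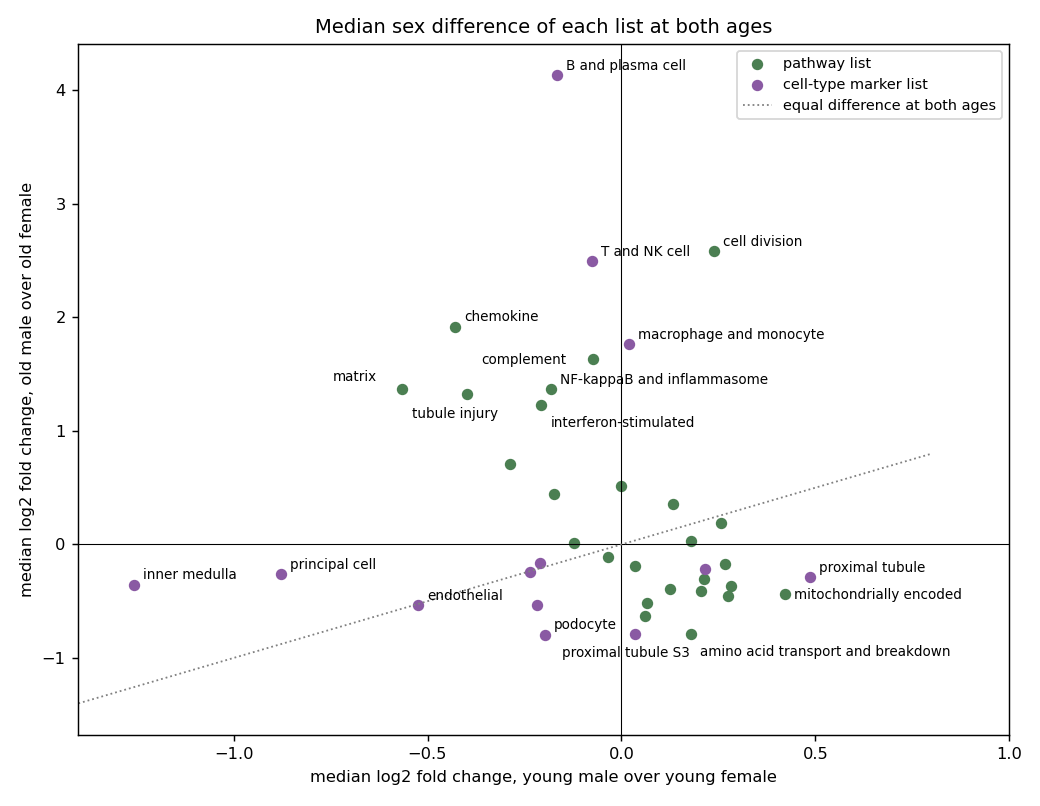
Each point is a list with at least 8 tested members, at its median log2 fold change between young males and young females (across) and between old males and old females (up), with pathway lists in green, cell-type marker lists in purple and a dotted line where both would be equal. Leukocyte, cell division and inflammatory lists lie far above the line at young medians between -0.57 and 0.24, and mitochondrially encoded and proximal tubule genes lie below it.

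Some of the strongest female excesses were present at both ages. Stc2 averaged 1.44 ± 0.410 CPM in old males and 46.7 ± 12.97 CPM in old females, and 0.841 ± 0.350 CPM in young males and 56.7 ± 7.78 CPM in young females. Its age-by-sex difference was 0.96 and was not called (SE 0.41, adjusted p = 0.0774). Slc22a13 averaged 0.862 ± 0.786 CPM in old males and 129 ± 29.03 CPM in old females, and 3.61 ± 1.21 CPM in young males and 156 ± 24.1 CPM in young females. Its gap was wider in old cortex (age-by-sex difference -1.82, SE 0.47, adjusted p = 0.00564). Slc22a22 averaged 44.6 ± 27.4 CPM in old males and 0.0996 ± 0.0811 CPM in old females, and 248 ± 41.7 CPM in young males and 0.0824 ± 0.121 CPM in young females. For Slc22a22 the age-by-sex difference was -2.83 and was not called (SE 3.48, adjusted p = 0.553). The male-specific P450 gene Cyp2c11, chosen after its values were seen, averaged 3.58 ± 2.90 CPM in old males and 121 ± 15.9 CPM in young males (SD, n = 4 each). It had no count in any female library of either age, nor in old male replicate 4. Its age-by-sex difference was not called, and with no female count its size is undefined.

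The authors' deposited table for this comparison lists 2019 genes, of which 1952 are not on chromosome X or Y, 1336 higher and 616 lower in old males, with absolute log2 fold changes of 1 or more. Of these, 1925 were tested here, and every one had the same direction, with 1907 called at an adjusted p under 0.05 and no fold limit. The authors' table rests on the same raw counts, so this overlap is no independent evidence. Of the 2098 genes called here at 2-fold or more, 1904 are in the authors' deposited table.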

How the data were processed

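Snap-frozen kidney cortex was profiled with a TruSeq Stranded mRNA kit after RNeasy Micro extraction, per the labels. The authors deposited 1 table with raw counts and RPKM per gene for 16 libraries. The submitters' processing notes name the build Rnor_6.0 and edgeR 3.8.6 with no role. Not given in the sources used here: aligner, counter and use of strand. Overlapping and antisense genes could therefore not be separated. The deposited RPKM equal the counts scaled by library total and gene length (largest relative difference 7.8e-16) and entered no test. The authors' deposited list of old male against old female genes gives log2 fold changes and FDR adjusted p-values.

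Counts as deposited were tested with edgeR 4.0.16 (R 4.3.3): filterByExpr, TMM factors, quasi-likelihood F test on the 8 old libraries over genes not on X or Y, Benjamini-Hochberg adjustment over the 13718 genes tested (99.91% of counts), threshold 0.05. SE is the absolute log2 fold change over the square root of F. Fold bounds and ratios cover counting error only, with 95% intervals and a floor of 3 counts over the group. The young and age-by-sex contrasts came from 1 model of all 16 libraries, and the young gene sets followed into old cortex from a fit of the 8 young libraries alone. Library totals were 10827485 to 35957516 counts in old males and 14269100 to 17048319 in old females, and the biological coefficient of variation was 0.134. On simulated counts for the old comparison (13716 genes) 64% of genes changed 1.5-fold and 100% of those changed 2-fold were recovered, with 14 false calls. The simulation gave all genes the same dispersion and changed 200 genes, each above 2 CPM. Its rates do not carry over to scarcer genes or to data with as many differences as these. Named genes were the 12 with the largest folds in each direction (called, no overlap between the sexes, mean CPM of at least 2 in one sex, proper symbol), up to 4 called members with the smallest p of each of 42 lists, and Cgas and Tmem173. A few genes that this rule selects are not reported here. Any other gene named was chosen after its values were seen. The members and lists were chosen with earlier results of these data known. No 2 libraries agreed within sampling noise. Alternatives were other scalings, filters, tools (DESeq2 1.42.0, limma-voom 3.58.1), covariates, prefixes alone and leaving out each library.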

Additional observations from a re-analysis of the deposited data

Results flagged for a closer look

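Of 126 pairs of a gene and a group of 4 libraries examined, 16 had 1 library far from the other 3. Chance gives about 5% for normally spread values, but these are CPM of chosen genes. A pair with 0 CPM in 3 libraries and a count in 1 is always flagged, as for Reg3b, Il19, Cd79b, Sntg2, Cyp1a1 and Emilin3. The 16 can therefore not be weighed against that 5%. Old male replicate 4 was that library for Slc22a22 (3.761 CPM), Dhrs7l1 (12.16 CPM) and Sds (0 CPM), each time the lowest male. Old male replicate 1 was the highest male for Cyp1a1 (0.1562 CPM), Emilin3 (0.05207 CPM) and Gata5 (5.571 CPM) and the lowest for Col4a1 (363 CPM). Old female replicate 1 was the highest female for Havcr1 (3.504 CPM), Il19 (0.1523 CPM) and Sds (58.42 CPM). Old female replicate 2 was the highest for Sntg2 (0.06838 CPM), Lmnb1 (4.718 CPM) and Gpx2 (20.72 CPM) and the lowest for Nell1 (3.556 CPM). Old female replicate 3 was the highest for Cd79b (0.07381 CPM) and old female replicate 4 for Reg3b (0.131 CPM). Several of these levels are a few counts or fewer.

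The sex difference was not the same in old and young cortex for 12 of 26 genes examined with edgeR's test of the difference itself. It was larger on the male side in old cortex, in log2 units, for Il24 (10.58), Cd79b (9.31), Il19 (7.628), Cr2 (7.089), Havcr1 (5.891), C4b (5.632) and Tmem173 (2.343). It was further to the female side in old cortex for Cyp1a1 (-5.832), Sds (-2.869), Slc22a13 (-1.818), Slc22a7 (-1.793) and Trpa1 (-1.578). For genes without counts in a group these fitted differences depend on the prior count and are not bounds.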

How the results depend on the processing

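The 6539 calls were 6343 to 6862 with RLE or upper-quartile factors, DESeq2, limma-voom, other filters, all 16 libraries in 1 model, with X and Y genes, on numbered autosomes only or with the identifier prefix as a covariate. Asking for a 2-fold difference left 2098 (1406 higher, 692 lower in old males), and the DS libraries alone gave 4189 (2099 higher, 2090 lower). Scaled by library totals, 5760 were higher and 1623 lower, and age-by-sex calls were 6515 above and 864 below; an adjusted p under 0.01 left 1721 below. The replicate block gave 6272 calls, with 92.6% of the 6539 kept, and 5490 age-by-sex calls. The libraries share only a number, with correlations of same-numbered deviations of 0.0306, -0.0623, 0.0797 and 0.0466. Leaving out 1 library gave 5544 to 6536 calls (2963 to 3398 higher, 2581 to 3138 lower) and 4869 to 5370 age-by-sex calls (2515 to 2811 above, 2350 to 2692 below). Fabp4, not called, turned to 0.3259 with the medulla score and 0.9037 in OP libraries. Of 167 named genes, 21 lost the call in DS libraries, 6 in OP libraries, 9 on library totals, 5 with the medulla score and 0 to 7 with 1 library left out. With 1 library left out, counts of 0 became 2 for the antigen presentation list (called lower) and fatty acid oxidation (called higher) and 1 for nuclear oxidative phosphorylation and heat shock genes (called higher) and for B and plasma cell markers (called lower). Depth limits genes near 1 CPM, Cgas among them. The cause of these shifts was not tested.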

Other observations

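Immediate early genes, which answer growth and stress signals within minutes and can also answer tissue handling, had 8 of 23 tested members higher in old males and none lower (median log2 fold change 0.45); without old male replicate 1, 4 were called lower. Atf3, a stress-induced transcription factor, had 19.7, 24.5, 36.4 and 23.9 CPM in old males and 2.29, 2.94, 13.4 and 3.60 CPM in old females (log2 fold change 2.25, SE 0.47, adjusted p = 0.00277), and Myc had 18.5, 19.9, 26.4 and 23.6 CPM in males and 7.54, 9.37, 10.8 and 6.81 CPM in females (log2 fold change 1.35, SE 0.16, adjusted p = 0.000104). In both all males lay above all females, with old female replicate 3 the highest female. Of 19 circadian clock genes 8 were lower and 2 higher (4 higher without old female replicate 4), with a median of -0.11 that turned to 0.102 on library totals. Per1, a clock repressor, averaged 42.6 ± 10.6 CPM in old males and 86.7 ± 14.4 CPM in old females (SD, n = 4 each; log2 fold change -1.02, SE 0.18, adjusted p = 0.00114), and Nfil3, which opposes Dbp at the same sites, had 11.6, 12.6, 16.2 and 11.4 CPM in males and 1.90, 4.03, 3.62 and 2.49 CPM in females (log2 fold change 2.11, SE 0.22, adjusted p = 3.8e-05). The immediate early and clock counts are to be weighed against all genes tested, with 24.2% called higher and 23.4% called lower. The sources used here give no time of day of collection, and its part was not tested. In the DS libraries alone 1 clock gene was called lower and none higher.

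Over all tested genes 24.2% were higher and 23.4% lower, and the counts of this paragraph are to be read beside those shares. Cholesterol and fatty acid synthesis had 6 of 27 members higher, close to the share over all genes, and 1 lower (median 0.19). That 1 was Fdft1 (squalene synthase), with 88.5, 79.3, 69.6 and 67.7 CPM in old males and 296, 312, 294 and 311 CPM in old females (log2 fold change -1.99, SE 0.09, adjusted p = 1.64e-06), while Sqle, the next enzyme of the pathway, had 28.8, 35.5, 30.2 and 24.6 CPM in males and 16.99, 17.8, 22.8 and 12.1 CPM in females (log2 fold change 0.78, SE 0.17, adjusted p = 0.00422). Neither overlapped between the sexes, and Fdft1 was also lower in young males (log2 fold change -1.21). Of 17 heat shock genes none was higher and 3 were lower, the mitochondrial chaperones Hspd1 (-0.49) and Hspe1 (-0.47) and the small heat shock protein gene Cryab, which had 138, 84.6, 73.3 and 24.5 CPM in males and 357, 324, 290.0 and 316 CPM in females (log2 fold change -1.998, SE 0.38, adjusted p = 0.0018).

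Markers of tissue next to the cortex were scarce. None of the 2 tested urothelium genes and of the 4 tested adipocyte and adrenal genes was called, and their lists summed to 5.66 to 10.4 CPM and 16.2 to 44.1 CPM in old males, and to 4.51 to 15.1 CPM and 32.6 to 42.1 CPM in old females. On chromosome 20, which carries the rat major histocompatibility complex, 132 of 444 tested genes were higher and 84 lower in old males, beside 142 higher and 102 lower of 462 on chromosome 13 and 24.2% higher and 23.4% lower of all tested genes. Over the numbered chromosomes the share of tested genes called ran between 41.8% and 54.6%. None of 33 tested mitochondrial chromosome genes was higher and 11 were lower.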
